A study of Mus musculus with 2 samples.

Results

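The 34 genes described here form a list of antiviral genes that type I interferon induces in mouse cells. They were chosen by symbol, and all 34 were found among the 32285 features counted in both libraries. The libraries hold UMI counts (unique molecular identifiers, 1 per captured RNA molecule) of single CD45+ DAPI- cells, that is living leukocytes, sorted from tumours of mice with B16-F0 melanoma, a mouse tumour line that is grown by transplanting it. There was 1 wild-type (WT) and 1 knockout (KO) library. The labels do not name the gene knocked out, and give no strain, age, sex or number of animals, so the knockout could not be checked in the counts. They call the cells TIL-Treg, tumour-infiltrating regulatory T cells, although the sort took every CD45+ cell and most cells carried markers of other lineages.

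Type I interferons are small secreted proteins that act through a receptor made of Ifnar1 and Ifnar2. The receptor's kinases activate Stat2, which acts with Irf9 to switch on genes that carry an interferon-stimulated response element (ISRE) near their start. The products degrade or sequester viral RNA, sense foreign nucleic acid, or attach the ubiquitin-like protein Isg15 to other proteins. In tumours the same genes are read as a sign that cells have met interferon. Many of them also respond to interferon gamma, the type II interferon of T and NK cells, which acts through the GAS element.

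Some of the genes are neighbours. On GRCm38, also called mm10, Ifit1, Ifit2, Ifit3, Ifit3b and Ifit1bl1 sit side by side on chromosome 19, between 34550694 and 34650009. Oasl1 and Oasl2, and Oas1a, Oas2 and Oas3, form neighbouring groups on chromosome 5, and Rsad2 and Cmpk2 are neighbours on chromosome 12. Promoter windows of RefSeq on GRCm38.p6, running from 250 bases before to 50 bases after a gene's start, were matched for 27 of the 34 genes. The core of the ISRE was searched as GAAANNGAAA and the core of the GAS element as TTCNNNGAA, on both strands. The ISRE core was found in 16 of the 27 genes (59.3%), against 3.99% of all 27025 genes with a window, and the GAS core in 6 (22.2%) against 9.55%. These are matches of letters and not shown sites. The windows below were picked to show the core in genes that were higher in knockout monocyte-like cells and had a match, with Isg15 for comparison. The ISRE core is in capitals, and reads TTTC, any pair of bases, TTTC where it lies on the opposite strand.
Rsad2, chr12:26456548-26456587, minus strand: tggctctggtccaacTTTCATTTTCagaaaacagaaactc
Ifit1, chr19:34640789-34640828, plus strand: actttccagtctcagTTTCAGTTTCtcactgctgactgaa
Ifit3, chr19:34583392-34583431, plus strand: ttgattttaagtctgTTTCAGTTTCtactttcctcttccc
Ifit3b, chr19:34607788-34607827, plus strand: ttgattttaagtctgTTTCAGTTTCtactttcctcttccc
Ifit1bl1, chr19:34602048-34602087, minus strand: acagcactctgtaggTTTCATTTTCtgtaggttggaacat
Isg15, chr4:156200866-156200905, minus strand: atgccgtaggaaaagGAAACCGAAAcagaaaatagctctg
The printed stretches of Ifit3 and Ifit3b are the same letter for letter. Their whole transcripts are 81.2% identical, and 27 of 411 runs of 90 bases at the end of the Ifit3 transcript also occur in Ifit3b, so their counts are uncertain where reads could fall on either. Oas1a, Phf11b, Trim30a and Ifi27l2a also have close relatives in the mouse genome that were not compared here. Windows of Cmpk2, Ifi44 and Ifi44l held no match to either core, and those of Ifit2 no match to the ISRE core, although all 4 had larger ratios in monocyte-like cells than Ifit1. Of the 16 matched genes that were higher in knockout monocyte-like cells 8 held the ISRE core (50%), and of the other 11 matched genes 8 did (72.7%).

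After filtering, 11153 wild-type cells with a median of 5191 UMIs and 11131 knockout cells with a median of 6360 UMIs were kept, and 42 barcodes occurred in both libraries. Cells were put in classes by counting detected markers, with names that end in -like, and cells carrying markers of more than 1 lineage (1322 wild-type, 1040 knockout) were set aside as possible doublets. The 10 classes with at least 100 cells in each library were compared. B-like cells numbered 3477 and 395, so the libraries differed greatly in makeup. Erythroid markers, RNA that leukocytes do not make, are given in CPM, counts scaled to the same total for every class and library. They summed to 951 CPM in wild-type and 5.08 CPM in knockout monocyte-like cells, to 792 and 3.50 CPM in NK-like, to 693 and 7.23 CPM in B-like and to 451 and 5.89 CPM in macrophage-like cells. The sums were far lower in CD4 conventional-like (17.2 and 0.752 CPM), gamma-delta-like (12.5 and 2.22 CPM) and cDC2-like cells (9.22 and 2.35 CPM). The same held in Treg-like (9.20 and 1.95 CPM) and cDC1-like cells (8.67 and 2.17 CPM). The part of this RNA in the results was not tested. With 1 library per genotype no difference has a replicate check and no test was made. Levels are CPM of the summed UMIs of a class, not divided by gene length since each molecule is counted once at its 3' end, and brackets are 95% intervals that cover counting error only.

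The list was not spread evenly over the cells. Among the 12 classes with at least 30 cells in each library, monocyte-like cells had the highest mean level for 14 genes and neutrophil-like cells for 12, while B-like cells had the lowest for 13 and pDC-like cells for 10. The neutrophil-like levels rest on few cells: the highest 1% of cells held 13.9% of the UMIs of 32 of the genes (all but Ifi44 and Ifi44l) among 158 wild-type cells and 21.3% among 36 knockout cells, where the median cell had 14.5 such UMIs and the highest 314. Bst2, the membrane protein tetherin that holds budding virus on the cell, was highest in plasmacytoid dendritic (pDC-like) cells, at 4086 CPM [3977, 4197] in the wild-type and 4035 CPM [3874, 4201] in the knockout library, 6.67 times the mean of both libraries in the next class, cDC2-like cells. The groups of pDC-like cells, 155 and 71, were too small to compare genotypes. Ifi27l2a, a small mitochondrial protein, was the most abundant of the 34 over all cells, at 1110 CPM in the wild-type and 1276 CPM in the knockout library. It was nearly as high in Treg-like (2238 and 2654 CPM) as in monocyte-like cells (2451 and 2656 CPM), and far lower in NK-like cells (33.5 and 55.1 CPM). Isg15 reached 904 CPM in wild-type and 534 CPM in knockout neutrophil-like cells, of which there were 158 and 36. It stood at 448 and 537 CPM in the few mature DC-like cells (16 and 14) and at 395 and 551 CPM in monocyte-like cells, against 8.13 and 5.91 CPM in B-like cells. Isg20, an exonuclease that degrades RNA, had its highest levels in neutrophil-like (322 and 303 CPM) and Treg-like cells (156 and 152 CPM). Samd9l, an interferon-induced regulator of cell growth, was the only 1 of the 34 with its highest mean in B-like cells, at 187 and 165 CPM, not far above neutrophil-like cells (182 and 131 CPM). The least abundant over all cells were Ifi44l (0 and 7.86 CPM), Ifi44 (3.92 and 28.3 CPM), Ifit3b (5.78 and 9.27 CPM), Oas2 (7.53 and 9.43 CPM) and Cmpk2 (10.7 and 14.6 CPM).

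Relatives within the list did not share their order of classes. Ifit1 was highest in neutrophil-like cells (102 and 172 CPM) and next in monocyte-like cells (62.3 and 137 CPM), whereas Ifit1bl1 had 0 and 1 UMIs in neutrophil-like cells and was highest in CD4 conventional-like (30.3 and 45.1 CPM) and CD8-like cells (24.1 and 23.4 CPM). Ifit3 and Ifit3b were both highest in neutrophil-like cells, at 75.0 and 231 CPM and at 43.3 and 95.03 CPM, but the class next to it was monocyte-like for Ifit3 and CD4 conventional-like for Ifit3b (11.5 and 16.6 CPM). Rsad2 stood at 578 and 362 CPM in neutrophil-like, 108 and 317 CPM in monocyte-like, 99.1 and 96.0 CPM in macrophage-like and 3.25 and 2.63 CPM in B-like cells. Slfn5 ranged from 396 and 608 CPM in monocyte-like to 14.1 and 14.8 CPM in NK-like cells, and Rtp4 from 271 and 330 CPM in neutrophil-like to 1.53 and 1.71 CPM in pDC-like cells, on 2 and 1 UMIs. Besides Bst2, Stat2 was highest in pDC-like cells (81.3 and 104 CPM). Phf11b was highest in cDC1-like cells (193 and 233 CPM). For Cmpk2, Herc6, Usp18, Trim30a and Ifi27l2a the first 2 classes differed by at most 1.04 times in their mean level, so the class counted as their highest is not well separated from the next.

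Knockout over wild-type ratios were computed for each gene with at least 20 UMIs over both libraries in a class. A gene is called higher or lower where the libraries differed by 1.5-fold or more and the interval left out 1. It is a size rule and nothing was tested. Shares of all features past the rule were counted in the main setting only, so counts under alternative settings carry no such share. The median log2 ratio of the measured genes was highest in monocyte-like (0.64), cDC2-like (0.56) and CD4 conventional-like cells (0.53). It was 0.41 in gamma-delta-like, 0.25 in Treg-like, 0.21 in B-like and 0.20 in NK-like cells, and close to 0 in macrophage-like (0.03), cDC1-like (0.01) and CD8-like cells (0.00). Over all features the medians of these classes lay between -0.06 and 0.11, the highest in CD4 conventional-like (0.11) and CD8-like cells (0.11), which also moves every ratio of those classes.

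**Figure D1:**
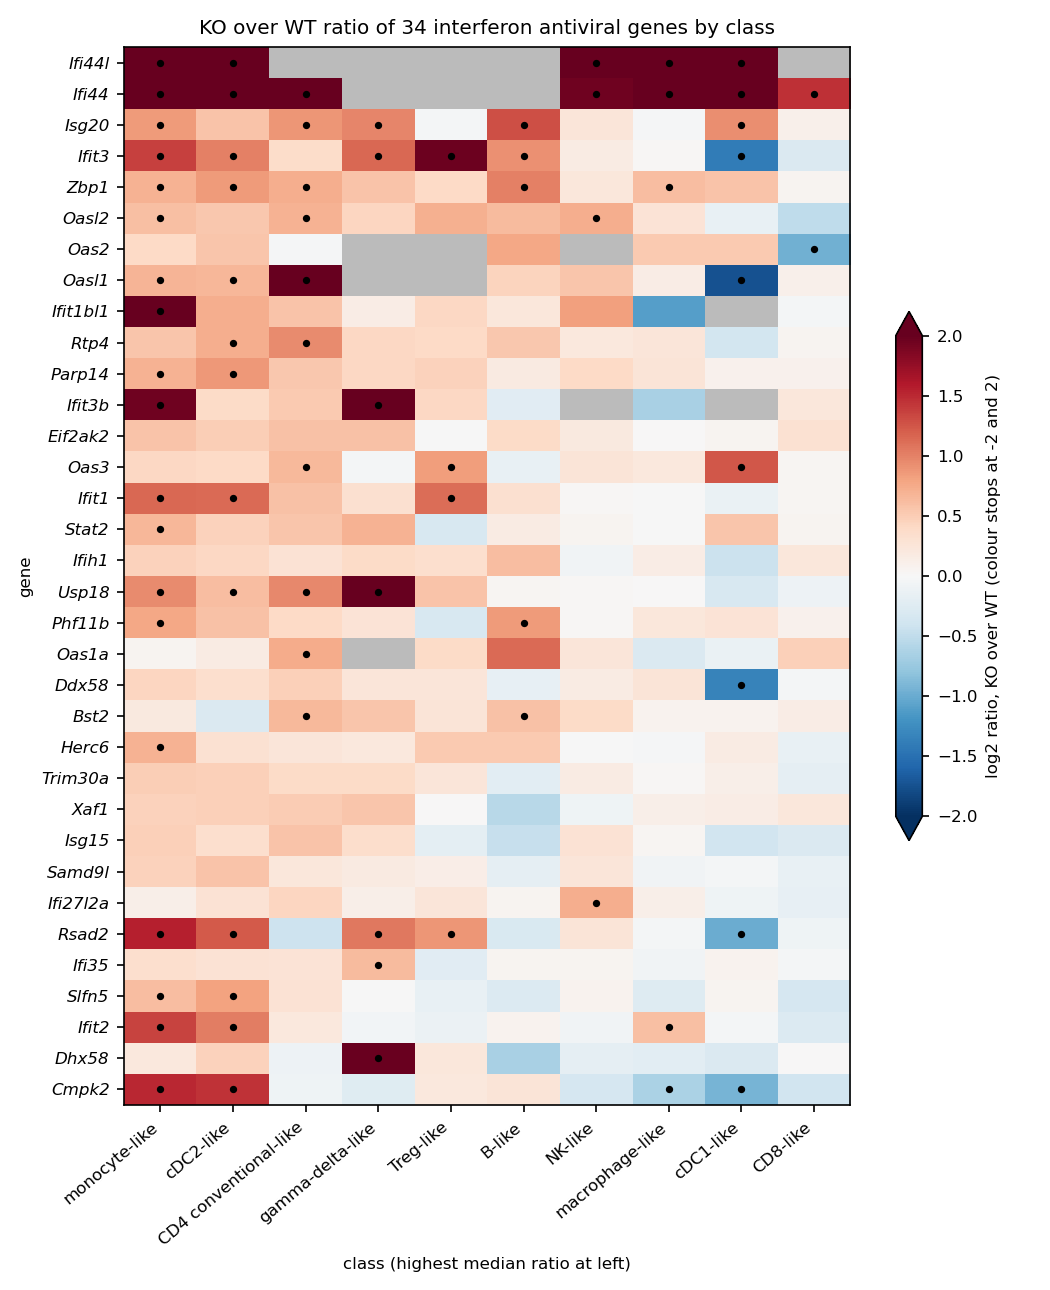
Log2 ratio of knockout over wild-type CPM for the 34 genes (rows, ordered by their median) in 10 classes (columns, ordered by their median); black dots mark genes past the size rule, grey marks genes under 20 UMIs, and colours stop at -2 and 2. Red fills the monocyte-like column, where all 34 ratios were above 0, while the cDC1-like and CD8-like columns hold both colours.

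In monocyte-like cells, 641 wild-type and 1171 knockout, 19 of 34 genes were higher and 0 lower in the knockout library, where 3.18% of all 10891 measured features were higher and 4.24% lower. The IFIT genes, whose proteins bind viral RNA and block its translation, all passed the rule. Ifit1 stood at 62.3 CPM in the wild-type and 137 CPM in the knockout library (log2 1.14 [0.99, 1.30]). Ifit2 stood at 58.9 and 151 CPM (1.36 [1.20, 1.51]) and Ifit3 at 53.9 and 138 CPM (1.36 [1.20, 1.53]). Their scarcer relatives Ifit1bl1 (4.66 and 19.7 CPM, 2.08 [1.55, 2.65]) and Ifit3b (4.94 and 19.1 CPM, 1.95 [1.43, 2.51]) had larger ratios on few UMIs, 33 against 217 and 35 against 210. Rsad2 encodes viperin, an enzyme that makes a chain-terminating nucleotide from CTP. Its level was 108 CPM in wild-type and 317 CPM in knockout cells (1.56 [1.44, 1.67]). Its chromosomal neighbour Cmpk2, a mitochondrial nucleotide kinase, had 18.2 and 52.0 CPM (1.51 [1.24, 1.80]). In these 7 genes the intervals of the 2 libraries' levels did not overlap. The share of all features with such intervals apart was not counted.

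Other roles were less uniform in the same cells. Of the genes around Isg15 conjugation, Usp18, which removes Isg15 from proteins and dampens the receptor, was higher (33.9 and 64.9 CPM, 0.94), as was Herc6, the mouse ligase for Isg15 (34.6 and 56.1 CPM, 0.70), but Isg15 itself, at 0.48 [0.41, 0.54], lay under 1.5-fold. Oligoadenylate synthetases make the second messenger that activates RNase L. Of these, Oas1a had the smallest ratio of the whole list at 0.06 [-0.14, 0.25], with Oas2 at 0.40 and Oas3 at 0.42, whereas the related Oasl1 (0.68) and Oasl2 (0.60) were past the rule. The RNA sensors RIG-I (Ddx58, 0.43), MDA5 (Ifih1, 0.47) and LGP2 (Dhx58, 0.22) and the RNA-activated kinase PKR (Eif2ak2, 0.57) were not called. Zbp1, a sensor of left-handed nucleic acid, was called (268 and 435 CPM, 0.70 [0.62, 0.77]). The signal transducer Stat2 was higher (46.4 and 73.6 CPM, 0.67), as were the exonuclease gene Isg20 (0.85), Phf11b (0.77), the ADP-ribosyltransferase gene Parp14 (0.69) and Slfn5 of the schlafen family (396 and 608 CPM, 0.62). Bst2 (0.19) and Ifi27l2a (0.12) were near 0 on this scale. The remaining genes, Rtp4 (0.56), Trim30a (0.49), Samd9l (0.47), Xaf1 (0.46) and Ifi35 (0.34), lay between.

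**Figure D2:**
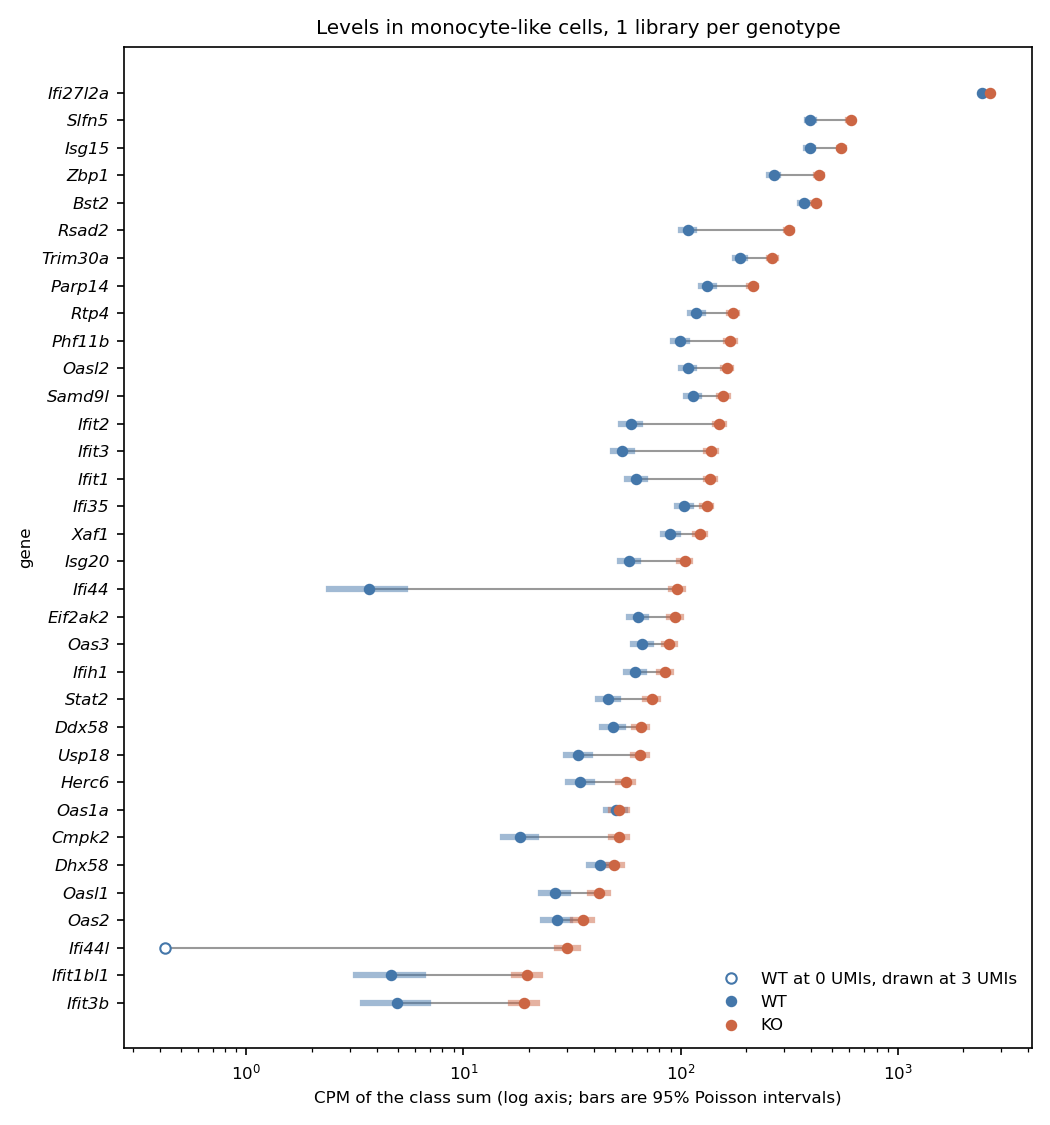
Level of each gene in monocyte-like cells (x axis, CPM on a log axis; y axis, genes ordered by the knockout level) in the wild-type (blue) and knockout (orange) library, with 95% Poisson intervals as bars and Ifi44l, at 0 UMIs in the wild-type library, drawn as an open circle at 3 UMIs. Every orange point lies to the right of its blue point; Rsad2 moves from 108 to 317 CPM, while Oas1a and Ifi27l2a hardly separate.

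A Cxcl9 UMI, the transcript of a chemokine that interferon gamma induces, was found in 13.9% [11.3, 16.8] of wild-type and 26.8% [24.3, 29.5] of knockout monocyte-like cells. Without the cells holding one, 20 genes were higher, 0 lower and the median was 0.63, with Ifit3 at 1.54, Rsad2 at 1.48 and Ifit1 at 1.24. A cell with no captured Cxcl9 UMI may still have met interferon gamma. The split therefore cannot separate type I interferon from interferon gamma. Some markers of other cells moved in this class. The sum of 8 T-cell markers was 25.0 CPM in the wild-type and 46.2 CPM in the knockout library, with 5 of 8 higher, and that of 7 pDC markers 81.7 and 30.8 CPM, with 4 of 7 lower and no marker of either list at 0. All 4 erythroid markers were lower, as given above. Their part was not tested. The 8 monocyte markers summed to 8391 and 8419 CPM. With a 2-fold rule 9 genes were higher.

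In cDC2-like cells, type 2 conventional dendritic cells marked by Cd209a and Clec10a, 242 wild-type and 297 knockout, 13 of 34 genes were higher and 0 lower (all features 4.15% and 4.03%). Rsad2 stood at 35.6 CPM in the wild-type and 83.7 CPM in the knockout library (1.23 [0.92, 1.55]), although 1 cell held 37.9% and 30.9% of it. Ifit1 was at 26.7 and 58.6 CPM (1.13 [0.77, 1.51]), Ifit2 at 33.5 and 67.7 CPM (1.02) and Ifit3 at 36.9 and 74.3 CPM (1.01 [0.70, 1.33]). Cmpk2 had the next ratio after Ifi44 and Ifi44l (1.45), on 15 and 48 UMIs, and 1 cell held 53.3% of the wild-type ones. Zbp1 (0.85), Parp14 (0.86), Slfn5 (0.81), Rtp4 (0.72), Oasl1 (0.67) and Usp18 (0.62) were also higher. Bst2 alone lay below 0 (670 and 548 CPM, -0.29 [-0.38, -0.20]). Its highest class is the pDC-like one, and the sum of 7 pDC markers in cDC2-like cells was 521 CPM in the wild-type and 185 CPM in the knockout library, while 5 melanocyte markers summed to 2.15 and 42.6 CPM. Their part in the ratios was not tested. The number higher was 7 with cells of mixed lineage kept and 20 with stricter gates, settings for which the share over all features was not counted.

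Ifi44 and Ifi44l, a pair of interferon-induced genes related to GTPases, had the largest ratios. Over all 11432 wild-type barcodes Ifi44l had 0 UMIs and Ifi44 384, and over all 11398 knockout barcodes they had 885 and 3180. Ifi44l was higher in each of the 5 classes where it was measured, and Ifi44 in each of 7. In monocyte-like cells Ifi44l had 0 UMIs in wild-type cells and 332 UMIs or 30.1 CPM [27.0, 33.5] in the knockout library. This knockout level was 71.1 times a floor of 3 UMIs, which is 0.423 CPM in the wild-type cells. Against the floor of each class it was 17.6 times in cDC1-like (55 UMIs), 16.2 times in cDC2-like (57), 14.9 times in macrophage-like (48) and 5.81 times in NK-like cells (29). These folds depend on the floor chosen and are not lower bounds. Ifi44 in monocyte-like cells stood at 3.67 and 96.3 CPM, or 26 and 1062 UMIs (4.71 [4.16, 5.34]). It stood at 3.57 and 32.01 CPM in macrophage-like (3.17), at 6.15 and 48.6 CPM in cDC2-like (2.99) and at 1.64 and 11.03 CPM in CD4 conventional-like cells (2.75). In cDC1-like cells the levels were 16.6 and 69.1 CPM (2.06), in NK-like 4.60 and 17.7 CPM (1.94) and in CD8-like 0.982 and 2.70 CPM (1.46). In none of these classes did the intervals of the levels overlap, though how often that holds over all features was not counted.

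**Figure D3:**
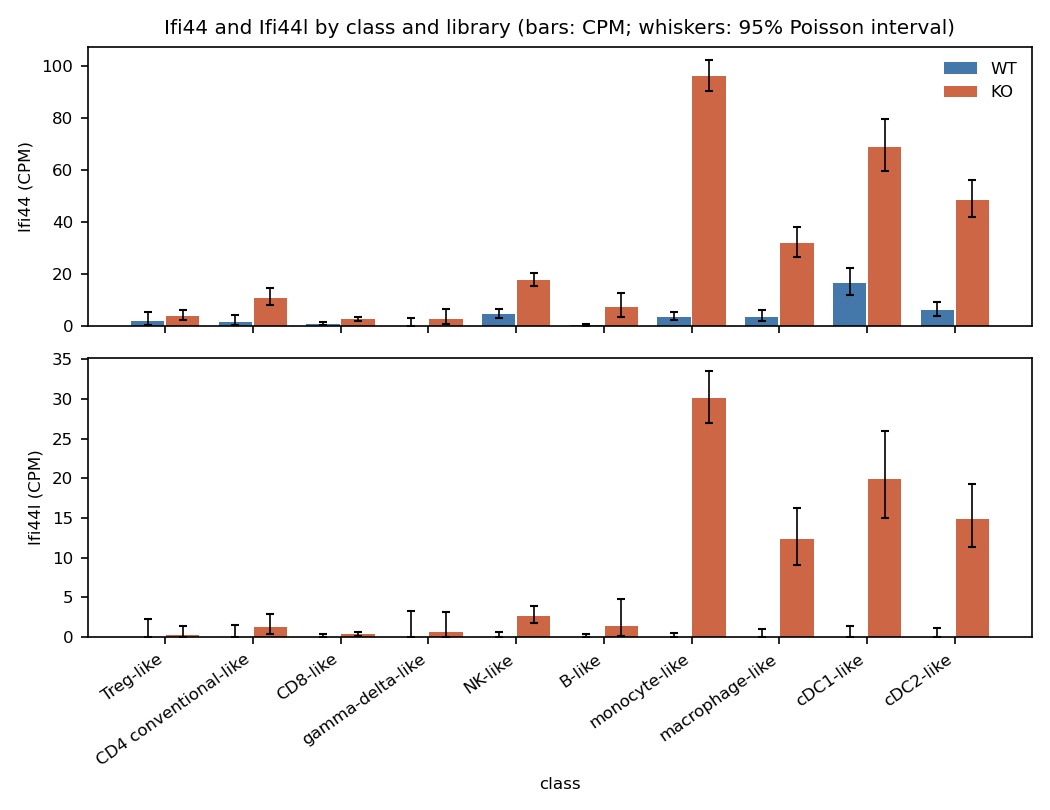
Level of Ifi44 (top) and Ifi44l (bottom) in CPM by class in the wild-type (blue) and knockout (orange) library, with 95% Poisson intervals as whiskers. Wild-type bars of Ifi44l are at 0 in all 10 classes, and both genes reach their highest knockout level in monocyte-like cells, 96.3 and 30.1 CPM.

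The 2 genes are neighbours on the minus strand of chromosome 3, Ifi44 at 151730922 to 151749960 and Ifi44l at 151758737 to 151762892, with 8776 bases between them. In the GENCODE annotation Ifi44l carries the tag reference_genome_error, as do 13 of 55450 genes and no other of the 34. The end of the Ifi44 transcript shares no run of 90 bases with Ifi44l. The labels give no strain, and whether the animals of both libraries carry the same sequence at these genes was not tested, which limits what the ratios of the pair can be read as. Of 7 other genes within 2 Mb that were measured in at least 3 classes, 0 were higher and 0 lower in at least 3. Without the pair the number higher is 17 in monocyte-like, 11 in cDC2-like, 9 in CD4 conventional-like, 2 in NK-like, macrophage-like and cDC1-like, and 0 in CD8-like cells, and stays at 7, 5 and 4 in gamma-delta-like, B-like and Treg-like cells. Among all 34, 12 genes were higher in at least 3 classes, against 2.57% of features measured in as many. Ifit3, Zbp1 and Isg20 were higher in 5 each, and Usp18 and Rsad2 in 4.

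In Treg-like cells, gated on CD4 and Treg markers other than Foxp3, 154 wild-type and 387 knockout, 4 of 30 measured genes were higher and 0 lower (all features 2.47% and 3.26%). Ifit3 had the largest ratio, with 12.9 CPM [7.97, 19.7] in wild-type and 50.01 CPM [43.4, 57.4] in knockout cells (1.96 [1.31, 2.68]), but only 9 wild-type and 58 knockout cells had a UMI of it, and 1 cell held 38.1% and 20.98% of its UMIs. Ifit1 stood at 33.1 and 72.2 CPM (1.12 [0.70, 1.57]), with 94 of its 296 knockout UMIs (31.8%) in 1 cell. Rsad2 (9.81 and 18.1 CPM, 0.88) and Oas3 (13.5 and 24.2 CPM, 0.84) rested on 16 and 22 wild-type UMIs. A single knockout cell, with 16015 UMIs against a class median of 6323, was the highest cell for 14 of the 30 genes. Isg15 did not pass the rule (123 and 108 CPM, -0.19 [-0.43, 0.06]). The number higher was 11 with mixed cells kept, 11 with stricter gates and 14 with Leiden clusters in place of gates, where the median was 0.57. The clusters named Treg had only 49.01% and 47.13% of their cells in the Treg gate. Myeloid markers, 9 genes, summed to 1238 CPM in wild-type and 606 CPM in knockout Treg-like cells, and their part was not tested.

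CD4 conventional-like cells, CD4 T cells with few Treg markers, 462 and 734, had 10 of 33 genes higher and 0 lower (all features 5.27% and 1.82%). Here the IFIT genes lay under the rule (Ifit1 0.58, Ifit3 0.37), and the called genes were others. Rtp4, a Golgi chaperone with antiviral action, stood at 35.6 and 68.4 CPM (0.94 [0.59, 1.31]), Isg20 at 47.5 and 87.7 CPM (0.89 [0.58, 1.20]), Zbp1 at 116 and 193 CPM (0.73 [0.53, 0.93]) and Bst2 at 150 and 234 CPM (0.64 [0.47, 0.82]). Usp18 (0.97), Oas1a (0.75), Oasl2 (0.70) and Oas3 (0.65) were higher on 23 to 61 wild-type UMIs, and Oasl1 (2.46) on 2. The 8 NK markers summed to 184 CPM in the wild-type and 453 CPM in the knockout library in this class, with 8 of 8 higher. Monocyte markers summed to 423 and 692 CPM (3 of 6 measured higher, 1 lower) and myeloid markers to 368 and 529 CPM (3 of 8 higher, 1 lower). Macrophage markers (46.7 and 39.9 CPM) and neutrophil markers (19.7 and 10.8 CPM) went the other way. The part of these markers was not tested. All but 2 of the called genes lay under the 2-fold rule.

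CD8-like cells were the largest T-cell class, 1335 and 2014 cells with a median of 7325 and 7342 UMIs. Ifi44 was the 1 gene higher and Oas2 the 1 lower of 33 (all features 8.62% and 4.87%), and 17 ratios were above and 16 below 0. Oas2 had 30 UMIs in each library, 2.45 and 1.26 CPM (-0.96 [-1.74, -0.18]). Ifit3 (44.4 and 36.2 CPM, -0.29 [-0.45, -0.14]), Isg15 (60.4 and 49.2 CPM, -0.29 [-0.43, -0.16]) and Ifi27l2a (746 and 668 CPM, -0.16 [-0.20, -0.12]) lay below 0 by less than 1.5-fold. With cells weighted equally the median was 0.28 and 5 genes passed 1.5-fold. The 4 erythroid markers summed to 418 and 1.81 CPM in CD8-like cells (4 lower), the 4 proliferation markers to 625 and 1040 CPM (4 higher) and 5 plasma-cell markers to 25.0 and 136 CPM (2 higher), and their part was not tested. In gamma-delta-like cells, 159 and 266, 7 of 29 genes were higher and 0 lower (all features 2.85% and 2.84%). Those with more UMIs were Usp18 (7.16 and 28.9 CPM, 2.01 [0.93, 3.30]), Ifit3 (23.3 and 51.7 CPM, 1.15 [0.51, 1.84]), Rsad2 (9.85 and 20.6 CPM, 1.06), Isg20 (19.7 and 38.9 CPM, 0.98) and Ifi35 (45.7 and 71.1 CPM, 0.64). Ifit3b, with 2 and 24 UMIs (2.90 [0.89, 6.02]), and Dhx58, with 3 and 19 (1.97), rest on few molecules, as does the wild-type level of Usp18. Only 4 genes were higher among those with at least 50 UMIs, and Rsad2 was not among them.

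NK-like cells, 1143 and 2073, had 4 of 32 genes higher and 0 lower (all features 2.58% and 1.33%). Besides the Ifi44 pair these were Oasl2 (3.68 and 6.09 CPM, 0.72) and Ifi27l2a (33.5 and 55.1 CPM, 0.72 [0.49, 0.95]), whose ratio turned to -0.35 with cells of mixed lineage kept. B-like cells had 5 of 32 higher and 0 lower (all features 2.86% and 2.74%): Isg20 (10.2 and 25.0 CPM, 1.29 [0.72, 1.82]), Zbp1 (19.9 and 40.1 CPM, 1.01 [0.58, 1.42]), Ifit3 (7.64 and 14.5 CPM, 0.92), Phf11b (25.1 and 45.3 CPM, 0.85 [0.45, 1.23]) and Bst2 (55.0 and 82.8 CPM, 0.59). Knockout B-like cells also had more plasma-cell RNA, 1807 against 393 CPM over 5 markers, whose part was not tested, and 3 genes were higher when each gene's highest cell was left out. Macrophage-like cells, 176 and 217, had 4 of 34 higher and 1 lower (all features 2.77% and 4.3%). Besides the Ifi44 pair, Zbp1 (109 and 168 CPM, 0.62 [0.44, 0.80]) and Ifit2 (44.8 and 68.1 CPM, 0.61 [0.32, 0.90]) were higher, and Cmpk2 was lower (16.8 and 10.8 CPM, -0.64 [-1.24, -0.05]). The single Leiden cluster named macrophage, 38 and 61 cells, had Ifit2 at -0.62 and Cmpk2 at 1.53, but only 4.04% of its cells were in the macrophage gate, so it holds other cells than this class. Rsad2, which was higher in knockout monocyte-like cells, stood at 99.1 and 96.0 CPM here (-0.05 [-0.26, 0.17]).

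In cDC1-like cells, the cross-presenting dendritic cells marked by Xcr1 and Clec9a, 139 and 155, 4 of 32 genes were higher and 5 lower (all features 3.76% and 3.27%). Those lower were Oasl1 (24.1 and 7.23 CPM, -1.74 [-2.54, -0.99]), Ifit3 (19.98 and 7.60 CPM, -1.40 [-2.20, -0.64]), Ddx58 (12.8 and 5.06 CPM, -1.34), Rsad2 (49.4 and 25.0 CPM, -0.98 [-1.43, -0.55]) and Cmpk2 (16.6 and 8.68 CPM, -0.93). Few wild-type cells carried these UMIs. The highest wild-type cell of each gene held 94.3% of the Ifit3, 73.3% of the Rsad2, 59.4% of the Oasl1, 59.1% of the Cmpk2 and 52.9% of the Ddx58 UMIs. A single cell with 58118 UMIs, against a class median of 17580, was the highest for 21 of 31 genes and held 11.4% of all wild-type UMIs of the list in the class, and it was among those a doublet caller (Scrublet) removed. Without each gene's highest cell 0 genes were lower, Rsad2 stood at 0.57 and Ifit3 at 0.36. With 94.3% of the wild-type Ifit3 UMIs in 1 cell, an Ifit3 ratio without that cell rests on few molecules. How many of the 5 genes kept at least 20 UMIs is not given here, so the 0 may partly reflect genes too scarce to call. With Scrublet removal 0 were lower and Ifit3 stood at 2.68. With stricter gates, which left 82 cells in each library, the number lower was instead 11. With cells weighted equally Ifit3 was at 0.89, Rsad2 at 0.38 and Ddx58 at 0.15, and in Leiden clusters Oasl1 was at 0.33. Besides the Ifi44 pair Oas3 (7.92 and 18.8 CPM, 1.25 [0.49, 2.05]) and Isg20 (28.7 and 54.6 CPM, 0.93 [0.52, 1.35]) were higher, though Isg20 was at -0.089 with stricter gates and at -1.01 in thinned cells. In this class 10 macrophage markers summed to 626 CPM in the wild-type and 313 CPM in the knockout library (8 of 10 lower), 7 pDC markers to 47.5 and 17.0 CPM (3 lower) and 4 proliferation markers to 490 and 822 CPM (3 higher), and their part was not tested.

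**Figure D4:**
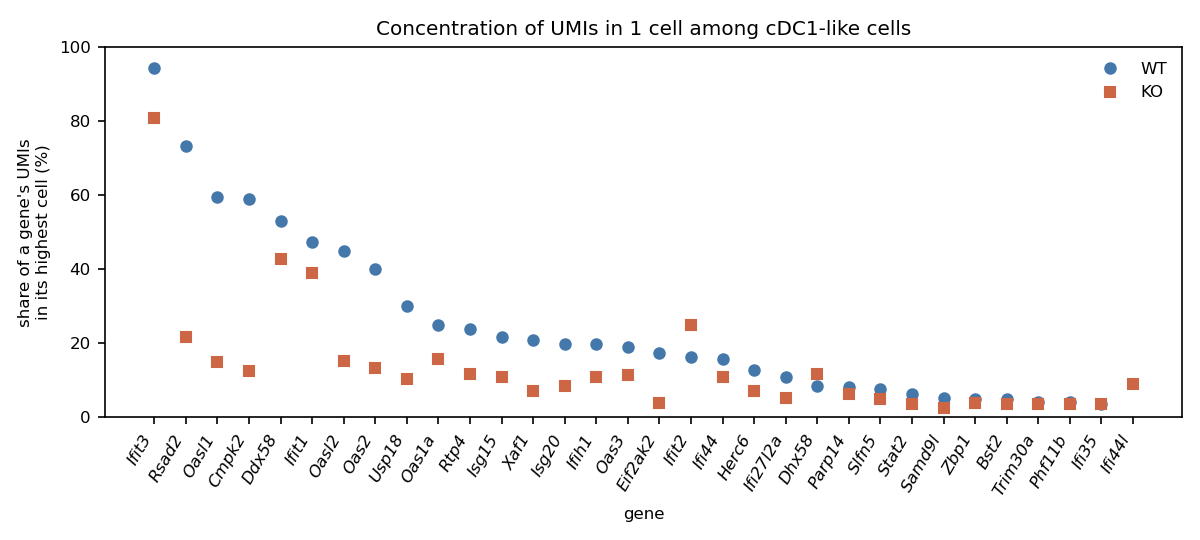
Share of each measured gene's UMIs that came from its highest cell (y axis, percent) in cDC1-like cells of the wild-type (blue circles) and knockout (orange squares) library, ordered by the wild-type share. The 5 genes that were lower in the knockout library, Ifit3, Rsad2, Oasl1, Cmpk2 and Ddx58, have the 5 highest wild-type shares, from 52.9% to 94.3%.

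UMIs of some genes sat in few cells in every library. Over all cells the genes with the largest share in 1 cell were Rsad2 (4.16% among wild-type and 2.12% among knockout UMIs), Ifit3b (3.89% and 2.02%), Ifit2 (3.10% and 1.11%), Oasl1 (3.03% and 1.07%) and Cmpk2 (2.48% and 1.29%). The 56 wild-type and 83 knockout cells with most Rsad2 held 50% of it, whereas 1292 and 1330 cells were needed to reach that share of Samd9l. In monocyte-like cells 11 of 641 and 26 of 1171 cells held as much of the Rsad2, and 82 of the knockout cells as much of the Ifi44. The highest monocyte-like cell held 4.72% of the knockout and 11.5% of the wild-type Rsad2 UMIs, and without each gene's highest cell the count of genes higher in this class stayed within 1.5 times of 19.

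To compare cells at equal depth, each was thinned to 2000 UMIs and the genes detected among the 32 without the Ifi44 pair were counted. At least 10 genes were detected in 12.3% [9.88, 15.1] of 641 wild-type and 25.3% [22.9, 27.9] of 1168 knockout monocyte-like cells, with 0 and 3 shallower cells left out (63.0% and 72.8% unthinned). In cDC2-like cells it was 3.72% [1.71, 6.94] and 10.8% [7.49, 14.9] (50% and 67.3% unthinned). The shares were 3.15% [2.28, 4.24] and 3.58% [2.81, 4.49] in CD8-like, 8.52% [4.85, 13.7] and 8.29% [4.99, 12.8] in macrophage-like and 0.790% [0.362, 1.49] and 1.12% [0.711, 1.67] in NK-like cells, with 20.2% and 29.4%, 67.0% and 71.0%, and 4.46% and 5.64% unthinned. B-like cells, the lowest of those named, were at 0.409% [0.224, 0.686] of 3421 and 0.517% [0.0626, 1.85] of 387 cells (1.03% and 2.28% unthinned). The wild-type and knockout intervals were apart in monocyte-like and cDC2-like cells, and overlapped in the other classes just named. In all T cells together they were apart, at 3.04% [2.47, 3.71] and 4.74% [4.16, 5.39]. These intervals count cells of 1 library per genotype and do not cover the spread between animals. Which intervals are apart also depends on the mark and depth chosen. At 5 or more genes the CD8-like shares, 13.96% [12.15, 15.94] and 18.49% [16.81, 20.26], were also apart. So were the CD4 conventional-like shares, 16.34% [13.07, 20.05] and 27.86% [24.63, 31.28], while macrophage-like, NK-like and B-like intervals still overlapped. Thinned to 1000 UMIs, the cDC2-like shares at 10 or more genes overlapped, at 1.24% [0.256, 3.58] and 3.03% [1.395, 5.674].

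**Figure D5:**
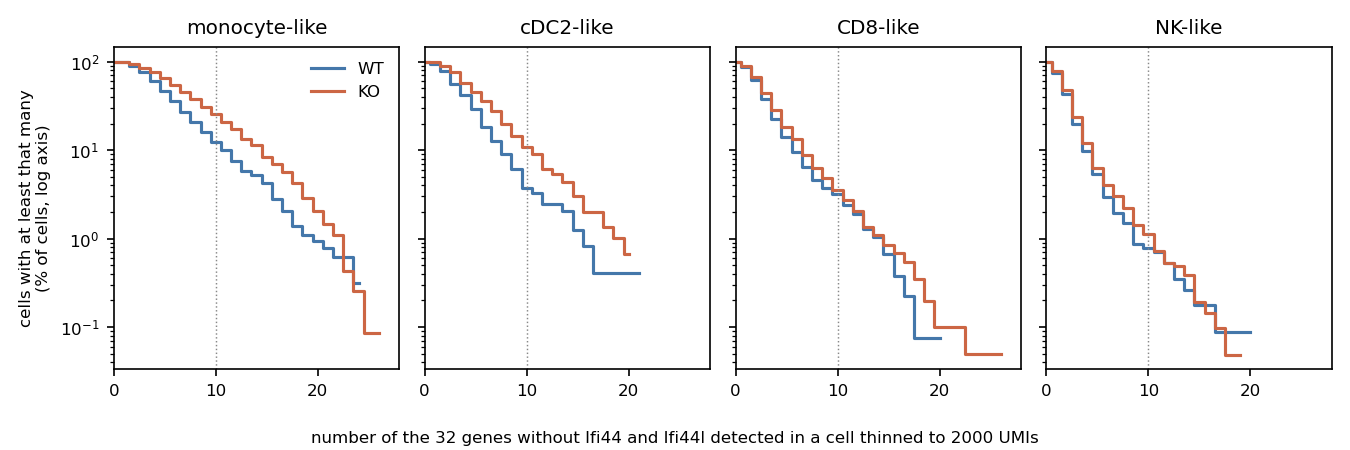
Share of cells (y axis, percent on a log axis) with at least the number of genes on the x axis detected, of the 32 without Ifi44 and Ifi44l, in cells thinned to 2000 UMIs, for 4 classes in the wild-type (blue) and knockout (orange) library; the dotted line marks 10 genes. The curves part in monocyte-like cells (12.3% and 25.3% at 10 genes) and cDC2-like cells. They lie closer in CD8-like cells (13.96% and 18.49% at 5 genes) and NK-like cells.

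Cells with 1 of the genes tended to hold others. At this depth, knockout monocyte-like cells with a Rsad2 UMI (204 of 1168) had a mean of 12.8 of the other genes and those without 5.92, and for Ifit1 (170 cells) the means were 13.2 and 6.12. In wild-type cells they were 11.4 and 4.51 for Rsad2 (62 of 641) and 11.9 and 4.69 for Ifit1. For Bst2 the knockout means were closer, 8.08 and 5.69, and for Ifi27l2a, found in 1032 cells, 6.63 and 4.74. In knockout T cells, cells with a Rsad2 UMI, 121 of 4764, had a mean of 10.3 other genes and those without 3.13.

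Other genes of the pathway were taken from lists by role. Among ligands Ifnb1, interferon beta, had 125 UMIs over all wild-type and 61 over all knockout barcodes, and Ifna2 and Ifnk had 1 in each. The other 16 of 19 ligands had 0. In monocyte-like cells, the only class with enough ligand UMIs to compare, Ifnb1 was lower (23 and 8 UMIs, 3.25 and 0.726 CPM, -2.16 [-3.53, -0.95]). It had 1 and 8 UMIs in macrophage-like and 5 and 2 in cDC2-like cells, too few to compare, and 0 in the other compared classes. Most Ifnb1 UMIs of both libraries thus lay outside the compared classes. Of the receptor and its signalling genes Ifnar1 (-0.15), Ifnar2 (0.02) and Irf9 (0.10) lay under the rule there. Of 15 genes of sensing and induction 1 was higher, Irf7, the factor that drives interferon alpha (172 and 278 CPM, 0.69). Socs1, a feedback inhibitor of the receptor's kinases, was the 1 of 5 negative regulators that was higher (49.7 and 117 CPM, 1.24). Of 2 genes of Isg15 conjugation Ube2l6 was higher. Among 32 other interferon-stimulated genes 9 were higher and 0 lower, with a median of 0.50. Of 15 measured genes that prefer interferon gamma, 13 were higher and 0 lower, with a median of 1.01, led by the GTPase gene Iigp1 (14.3 and 78.0 CPM, 2.45 [2.15, 2.76]) and Cxcl9 (311 and 715 CPM, 1.20 [1.13, 1.27]). The same list had 13 of 15 measured genes higher in cDC2-like, 10 of 14 in B-like and 9 of 14 in macrophage-like cells. Of the antiviral list 13 of 34, 5 of 32 and 4 of 34 measured genes were higher there. The counts were 4 of 15 against 1 of 33 in CD8-like, 6 of 15 against 4 of 32 in cDC1-like and 4 of 15 against 4 of 32 in NK-like cells. They were 5 of 14 against 10 of 33 in CD4 conventional-like, 4 of 13 against 7 of 29 in gamma-delta-like and 1 of 14 against 4 of 30 in Treg-like cells. Which interferon lay behind the ratios was not tested.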

How the data were processed

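Single CD45+ cells were profiled with 10x Genomics 3' chemistry, 1 library per genotype. The deposited values are raw UMI counts, 1 matrix per library. Per the submitters' processing notes, Cell Ranger and STAR were used with mm10; the version, 5.0.0, is per the file headers. An annotation release was not given in the sources used here. Only the end of each transcript is counted with this chemistry.

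Barcodes under 500 genes or 1000 UMIs, or over 10% mitochondrial UMIs, were dropped. Classes were gated on the number of listed markers with a UMI: at least 5 of 8 for T cells, 4 of 8 for NK, 4 of 9 for B, 4 of 7 for pDC, 4 of 8 for neutrophils and 5 of 9 for myeloid cells, which were split by the subset with the largest share of its markers detected (at least 50%). Treg-like cells had Cd4, no Cd8 and at least 3 of the Treg markers other than Foxp3, and CD4 conventional-like cells at most 2. Gamma-delta-like cells had at least 2 of 8 markers, and CD8-like cells Cd8b1 and no Cd4. These numbers were set after marker distributions and cell counts were seen, and the Treg number was lowered so that the wild-type class passed 100 cells. Cells passing more than 1 lineage gate were removed as possible doublets, by the same rule in both libraries. The 34 members, the marker and pathway lists and the tests were chosen with earlier results of these data known.

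UMIs were summed per class and library and scaled to CPM. Ratios carry exact conditional binomial, levels exact Poisson and shares Clopper-Pearson 95% intervals (scipy 1.17.1), and where a gene had no UMI in one library, 3 UMIs were put there as a floor. Ratio intervals were run on simulated Poisson counts, the model they assume. Those counts leave out the gathering of UMIs in single cells, so the run does not show how the intervals hold for these data. Thinning drew 1000 or 2000 UMIs per cell. Named in full were, in each class, the 4 members each way with the interval bound farthest from 0 among those past the size rule, the 5 highest and lowest over all cells, the 5 most concentrated in 1 cell, and the near copies; other members are given as examples seen with their values. In all, 13 alternatives were run, among them Leiden clusters at resolution 2 (scanpy 1.11.5) and Scrublet removal of the expected share of cells; leaving out Ifi44 and Ifi44l, or cells with a Cxcl9 UMI, was chosen after seeing the data. A gene of the signalling list is not reported here.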

Additional observations from a re-analysis of the deposited data

Results flagged for a closer look

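For 4 genes the direction differed between classes, with the ratio past the size rule in opposite directions. Ifit3 was higher in Treg-like (1.96) and lower in cDC1-like cells (-1.40), Rsad2 was higher in monocyte-like (1.56) and lower in cDC1-like cells (-0.98), Cmpk2 was higher in monocyte-like (1.51) and lower in cDC1-like cells (-0.93), and Oasl1 was higher in monocyte-like (0.68) and lower in cDC1-like cells (-1.74). These differences between classes were not tested. In each of the 4 a single wild-type cDC1-like cell held from 59.1% to 94.3% of the gene's UMIs there. Leaving out each gene's highest cell left 0 genes lower in that class, though some genes may then have had too few UMIs to call. With stricter gates 11 genes were lower there instead of 5.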

How the results depend on the processing

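With 1 library per genotype, no library could be left out, and the spread between animals is unknown. Class names and sizes rest on gates, and the depth limits genes near 20 UMIs. No paired analysis was possible because each genotype has 1 library. Of 668 recomputed ratios of named genes, 560 stayed within their 95% counting interval, 93 left it and 15 turned. Without the filters on cells no count changed by over 1.5 times. For the counts below, the share of all features past the rule under the same setting was not computed. Causes were not tested beyond what each setting's construction shows.

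With mixed cells kept, the number higher was 11 in Treg-like, 2 in CD8-like, 2 in B-like and 7 in cDC2-like cells, the number lower 0 in CD8-like, 1 in gamma-delta-like, 2 in B-like, 0 in macrophage-like and 1 in cDC2-like, the median 0.25 in macrophage-like and 0.45 in cDC2-like cells, and Ifi27l2a in NK-like cells -0.35. With Leiden clusters the number higher was 14 in Treg-like, 2 in NK-like, 3 in B-like and 7 in macrophage-like cells, the number lower 2 in macrophage-like and 2 in cDC1-like, and the median 0.57 in Treg-like, 0.52 in macrophage-like and 0.19 in cDC1-like cells; Oasl1 (0.33) turned in cDC1-like cells. The values above for the cluster named macrophage, where Ifit2 (-0.62) and Cmpk2 (1.53) turned, come from 1 cluster with 4.04% of its cells in the macrophage gate, and say little of that class. The clusters named Treg had 49.01% and 47.13% of their cells in the Treg gate, and that named cDC1 had 54.56% in its gate. With stricter gates the number higher was 11 in Treg-like, 2 in cDC1-like and 20 in cDC2-like cells, the number lower 0 in CD8-like, 0 in macrophage-like and 11 in cDC1-like, the median 0.41 in Treg-like and 0.89 in gamma-delta-like cells, and Isg20 in cDC1-like cells -0.089. With Scrublet removal the number higher was 2 in NK-like and 7 in cDC1-like, the number lower 2 in macrophage-like and 0 in cDC1-like, the median 0.29 in cDC1-like cells, where Ifit3 (2.68) and Rsad2 (0.82) turned.

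With the 2-fold rule the number higher was 2 in Treg-like, CD4 conventional-like, NK-like, B-like and macrophage-like, 9 in monocyte-like and 7 in cDC2-like cells, and the number lower 0 in CD8-like and macrophage-like and 3 in cDC1-like cells. With a minimum of 50 UMIs 4 genes were higher in gamma-delta-like cells. With cells weighted equally no interval was computed, so only the 1.5-fold part of the rule was applied and the counts are not like the main ones. By it the number higher was 5 in CD8-like, 8 in B-like and 10 in cDC1-like cells, and the number lower 1 in CD4 conventional-like, 2 in macrophage-like and 1 in cDC1-like. The median was 0.28 in CD8-like and 0.39 in cDC1-like cells, where Ifit3 (0.89), Rsad2 (0.38) and Ddx58 (0.15) turned. With cells thinned to 1000 UMIs the number higher was 5 in CD4 conventional-like, 2 in CD8-like, gamma-delta-like, NK-like, B-like and cDC1-like and 1 in macrophage-like cells, the number lower 0 in CD8-like, macrophage-like and cDC1-like and 1 in gamma-delta-like and B-like, and the median 0.26 in CD8-like, 0.18 in gamma-delta-like, 0.43 in macrophage-like, 0.19 in cDC1-like and 0.75 in cDC2-like cells. Rsad2 (1.07) and Isg20 (-1.01) turned in cDC1-like cells, and Ifi44l in NK-like cells, at 0 and 4 UMIs, gave a log2 ratio of -0.12 against the floor. Without each gene's highest cell 0 genes were lower in CD8-like and cDC1-like and 3 higher in B-like cells. Ifit3 (0.36) and Rsad2 (0.57) turned in cDC1-like cells, Ifit3 on few wild-type molecules. Without Ifi44 and Ifi44l 0 genes were higher in CD8-like and 2 in NK-like, macrophage-like and cDC1-like cells. With median-of-ratios scaling 0 genes were lower in macrophage-like cells.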
